A study of Homo sapiens with 9 samples.

Results

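HT29 cells, a line from a human colorectal adenocarcinoma, were compared by RNA sequencing after conditioned medium (CM) of stromal cells and after serum-free medium. The stromal cells, called ESC, had been isolated from epiploic adipose tissue (EPAT), the fat appendages on the outer wall of the human colon. The study calls their CM that of ESC alone and does not state whether cancer cells were present when it was collected. The 3 libraries of the ESC CM group came from HT29 cells given this medium for 24 h. The 3 control libraries came from HT29 cells that reached 50% confluency and were then serum-starved for 24 h. The labels give no starvation time for the ESC CM group. The study's methods state overnight starvation of cancer cells before experiments, and starvation for 3 days before treatments to synchronise them. The total starvation of each group is therefore unknown. Another set of 3 libraries in the series, HT29 cells with CM of a colorectal cancer microphysiological system (CRC-MPS, adipose tissue and cancer cells between ESC sheets), entered no test here. All cells were of 1 line, with no genetic change named, so each result describes HT29 cells in culture. By the study's methods, ESC were propagated with fetal bovine serum in DMEM, a base medium other than that of the HT29 cells. The control medium had no serum. How CM of ESC alone was made or diluted is not stated there. Effects of any serum carried in the CM, of any difference in base medium and of factors released by ESC cannot be told apart in this design.

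The members are the 9994 genes named in the deposited table of ESC CM against control, of 11664 gene names in the whole series. Each gene in that table had passed the authors' own comparison at an unadjusted p of 0.05, so all were already chosen for a difference between these libraries. A gene missing from it is called not listed, which says nothing about its level. Levels are given in TPM, a unit that scales the transcripts of each library to 1 common total and each gene by its length. Listed genes took 74.6% to 75.2% of that total in every library, and total reads are unknown. Libraries of 1 group correlated at r of 0.9945 or more over the listed genes on the log2(TPM + 1) scale, and libraries of different groups at 0.9596 or less. The spread within a group was small, with a median coefficient of variation of 5.91% with ESC CM and 8.05% in control medium. The labels number the libraries as biological replicates and do not say how the cultures were kept apart, so p-values measure the spread between these libraries. Single libraries stood apart in some gene groups (control replicate 1 in interferon genes, ESC CM replicate 3 in ATF4 and immediate-early genes, control replicate 3 in mitotic and mitochondrial genes), and counts without them stand beside those results.

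Cells that leave serum starvation re-enter the cell cycle. In that transition E2F factors switch on genes of DNA replication, and the DREAM and MuvB complexes release the genes of mitosis, many of which carry a cell cycle homology region (CHR) near their start. Growth also needs ribosomes, chaperones and building blocks, while starved cells rely on FOXO factors, cyclin-dependent kinase (CDK) inhibitors and the sterol-regulated factor SREBP. HT29 cells express genes of colonic absorptive and goblet cells, so markers of both can be followed in them.

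A gene was called when its adjusted p in limma was under 0.05 and the ratio of its TPM means was over 1.5 in either direction. Log2 differences from limma, ESC CM minus control on the log2(TPM + 1) scale, are given with their standard error (SE). The adjustment counted all 58780 genes of the GENCODE 29 annotation as tests. In this comparison 4294 of the 9994 listed genes were called (43.0%), 1953 of them higher with ESC CM (19.5%) and 2341 lower (23.4%). The ESC CM and control libraries did not overlap in any of the 4294, nor in 90.7% of all listed genes. Changes of at least 4-fold were mostly decreases, with 94 genes higher and 370 lower. Genes called higher had a median level of 24.2 TPM over the 6 libraries and genes called lower a median of 6.89 TPM. The balance between directions followed the level of the genes: between 1 and 5 TPM, 268 genes were higher and 658 lower, whereas above 100 TPM 283 were higher and 148 lower. Among genes that averaged at least 5 TPM, 1576 were higher and 1334 lower, which turns the split. In bulk RNA, fewer cells of a kind and less RNA per cell cannot be told apart.

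**Figure D1:**
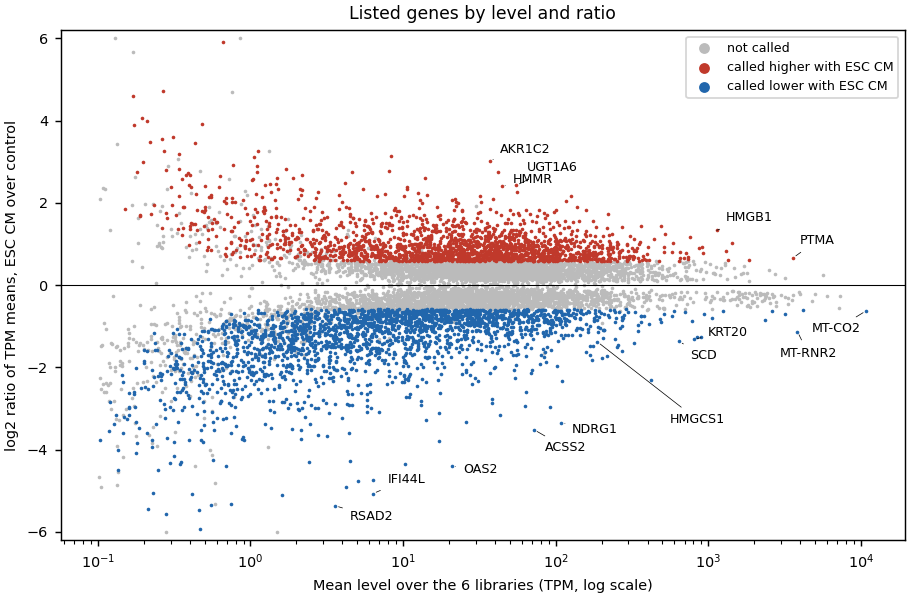
Each point is a listed gene with a mean of at least 0.1 TPM, placed by its mean level over the 6 libraries (TPM, log scale) and its log2 ratio of TPM means, ESC CM over control (ratios beyond 6 drawn at 6), with called genes in red (higher) and blue (lower). Over all listed genes, drawn or not, 1953 were called higher and 2341 lower. Genes at 0 TPM in a whole group have no ratio and are not drawn. Decreases outnumber increases at low levels, and increases outnumber decreases above 20 TPM.

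The largest increases among well-expressed genes included detoxifying enzymes and cell cycle genes. AKR1C2, an aldo-keto reductase that acts on steroids, was at 65.3, 64.1 and 67.7 TPM with ESC CM, against 7.21, 6.31 and 10.6 TPM in control medium, or 8.18-fold higher (limma, log2 difference 2.91 ± 0.16 SE, adjusted p = 1.22e-04). ALDH3A1, an aldehyde dehydrogenase, was 6.89-fold higher, at 13.5, 14.3 and 14.8 TPM with ESC CM and 2.08, 2.24 and 1.86 TPM in control medium. UGT1A6, a glucuronosyltransferase, was 5.37-fold higher, at 87.2, 95.4 and 95.97 TPM with ESC CM and 14.9, 16.7 and 20.3 TPM in control medium. None of these 3 genes had a control library near the ESC CM level. CDKN3, a phosphatase of CDKs, was at 89.1, 93.5 and 95.7 TPM with ESC CM, against 19.9, 18.8 and 18.9 TPM in control medium. DLEU2, a long noncoding RNA gene, was at 16.7, 17.9 and 18.9 TPM with ESC CM and 3.48, 3.52 and 3.55 TPM in control medium. TCN1, a vitamin B12 carrier, was at 24.3, 24.8 and 21.8 TPM with ESC CM and 5.54, 4.18 and 5.698 TPM in control medium. BCYRN1, a short cytoplasmic RNA related to Alu repeats, was at 76.2, 65.6 and 78.3 TPM with ESC CM and 4.56, 12.5 and 15.8 TPM in control medium, and its reads can match many genomic copies. PLAC8, a small protein first known from placenta, was 5.19-fold higher.

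The largest decreases included interferon-induced genes, which have their own account, and genes of transport and metabolism. SLC3A1, a subunit of the transporter for cystine and basic amino acids, was at 0.608, 0.375 and 0.398 TPM with ESC CM, against 11.4, 7.13 and 18.1 TPM in control medium, or 26.6-fold lower (limma, log2 difference -3.10 ± 0.28 SE, adjusted p = 4.86e-04). ACSS2, which makes acetyl-CoA from acetate, was at 13.4, 10.6 and 10.8 TPM with ESC CM, against 146, 126 and 126 TPM in control medium. NDRG1, a gene induced by hypoxia and differentiation, was 10.1-fold lower, at 22.7, 18.7 and 17.2 TPM with ESC CM and 163, 251 and 180.4 TPM in control medium. In all 3 the ESC CM libraries lay close together and far below the lowest control library. Those of SLC3A1 were under 1 TPM, which limits how exactly its ratio is known. The log2 of that ratio is -4.73, and the limma difference, with 1 added to each TPM, is smaller in size. TTR, the thyroxine and retinol carrier transthyretin, was 8.63-fold lower, ADM2, a peptide hormone, 7.91-fold lower, and MYO7B, a myosin of microvilli, 8.52-fold lower. C6orf223, an open reading frame, was 9.77-fold lower.

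In TPM gained or lost, the leading genes were abundant ones. PTMA, a small acidic nuclear protein, was at 4409, 4428 and 4367 TPM with ESC CM, against 2925, 2831 and 2590.3 TPM in control medium. HMGB1, a chromatin protein, was at 1563, 1638 and 1685 TPM with ESC CM and 721, 583 and 634 TPM in control medium. HMGB1P6, a pseudogene copy of it that can draw on the same reads, was at 693, 735 and 718 TPM with ESC CM and 296, 230.2 and 259.8 TPM in control medium. The nuclear import GTPase RAN and its partner RANBP1 were 1.52-fold higher and 2.26-fold higher, and LDHB, a lactate dehydrogenase subunit, 1.72-fold higher. RAN, at an excess just over 1.5-fold, lost its call without control replicate 3. On the other side, MT-RNR2, the large mitochondrial rRNA, was at 2469, 2595 and 2178 TPM with ESC CM, against 5263, 5075 and 5482 TPM in control medium. LGALS4, a galectin of the gut epithelium, was at 545, 529 and 524 TPM with ESC CM and 1249, 1342 and 1207 TPM in control medium. S100P, a calcium-binding protein, was at 535, 504 and 451 TPM with ESC CM and 1025, 1288 and 1265 TPM in control medium. RPL10, a protein of the large ribosomal subunit, was 1.51-fold lower, and lost its call without ESC CM replicate 2 or control replicate 1.

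Every gene of the mitosis list was higher with ESC CM. All 35 members were listed and all 35 were called higher, where 19.5% of all listed genes were, with a median log2 ratio of 1.37 (over all listed genes, -0.05). The 35 genes together summed to 3939, 3908 and 4022 TPM with ESC CM, against 1631, 1682 and 1362 TPM in control medium. Control replicate 3 held the lowest control level in 28 of the 35 genes, and the count of 35 was the same without that library and in each of the other fits that left out 1 library.

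Members were higher at every step of division. HMMR, a spindle-associated hyaluronan receptor, was at 68.2, 76.8 and 78.1 TPM with ESC CM, against 13.8, 12.9 and 15.5 TPM in control medium, or 5.29-fold higher (limma, log2 difference 2.33 ± 0.09 SE, adjusted p = 6.57e-05). CENPE, a kinesin of the kinetochore, was at 19.3, 21.6 and 20.9 TPM with ESC CM and 4.88, 4.11 and 4.06 TPM in control medium. DLGAP5, which stabilises spindle microtubules, was at 51.9, 47.9 and 56.01 TPM with ESC CM and 12.3, 11.3 and 11.03 TPM in control medium. For each of these 3 genes the lowest ESC CM library was more than 3 times the highest control library. TTK, a kinase of the spindle checkpoint, was 3.53-fold higher, ASPM, a spindle pole protein, 4.17-fold higher, and SGO2, a protector of centromeric cohesion, 4.52-fold higher. CDC20, the activator of the anaphase-promoting complex, was at 218, 208 and 223 TPM with ESC CM and 65.02, 65.3 and 44.97 TPM in control medium. Abundant members moved in the same direction. CCNB1, the mitotic cyclin, was at 338, 328 and 348 TPM with ESC CM and 106, 119.8 and 81.8 TPM in control medium. PRC1, of the spindle midzone, was at 247, 259 and 247 TPM with ESC CM and 111, 119 and 100.1 TPM in control medium. UBE2C, a ubiquitin-conjugating enzyme of mitotic exit, was at 337, 320.0 and 326 TPM with ESC CM and 188, 199 and 142 TPM in control medium.

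A short element known from genes of mitosis stood in part of the promoters of this list, whatever the level of the genes in these libraries. The letters TTTGAA, the core of the CHR, were searched on both strands in the 250 bases before each gene start in the RefSeq promoter table (build GRCh38.p14). They were found in 16 of the 29 list members with an entry (55.2%), against 3704 of all 27305 promoters (13.6%). In other lists it stood in 0 of 28 promoters of DNA replication, 1 of 18 of cholesterol genes, 2 of 28 of interferon genes and 0 of 14 of the NRF2 list. The match is a description of letters and not of binding. The windows of HMMR, DLGAP5 and ASPM are shown because these genes were among the most changed members with a match; the capitals mark the element as it reads on the strand of the gene, TTTGAA or its complement TTCAAA.
HMMR, chr5:163460592-163460631, plus strand: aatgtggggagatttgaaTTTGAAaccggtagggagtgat
DLGAP5, chr14:55191671-55191712, minus strand: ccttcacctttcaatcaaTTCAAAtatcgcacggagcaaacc
ASPM, chr1:197146759-197146800, minus strand: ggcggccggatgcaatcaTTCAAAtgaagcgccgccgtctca

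Genes of DNA replication were higher too. Of 34 list members, 33 were listed and 30 were called higher, with none lower, where 19.5% and 23.4% of all listed genes were. The list summed to 3067, 2982 and 3290 TPM with ESC CM, against 1660, 1452 and 1369 TPM in control medium. POLE2, a subunit of DNA polymerase epsilon, was at 19.5, 20.97 and 23.4 TPM with ESC CM, against 5.93, 5.03 and 5.05 TPM in control medium, or 3.99-fold higher (limma, log2 difference 1.81 ± 0.09 SE, adjusted p = 1.03e-04). MCM10, which helps to start the replication fork, was at 20.3, 19.3 and 20.8 TPM with ESC CM and 6.499, 4.58 and 5.36 TPM in control medium. ORC1, of the origin recognition complex, was at 25.4, 24.3 and 28.03 TPM with ESC CM and 9.56, 8.11 and 6.43 TPM in control medium. The groups did not overlap in any of these 3 genes, nor in 90.7% of all listed genes. All 6 subunits of the MCM2 to MCM7 helicase were called, and their sum was 997 ± 54.7 TPM with ESC CM and 422 ± 41.9 TPM in control medium (SD, n = 3 each), or 2.36 times as high. GINS2, a partner of that helicase, was 3.06-fold higher. PCNA, the sliding clamp, was at 337, 329 and 367 TPM with ESC CM and 193, 161 and 159 TPM in control medium. TK1, thymidine kinase, was at 241, 231 and 261 TPM with ESC CM and 135, 126 and 95.9 TPM in control medium. E2F2 was not listed.

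The letters TTGGCGC, a form of the E2F site, stood on either strand in 6 of the 28 replication promoters with an entry (21.4%), against 2.63% of all promoters. In other lists they stood in 1 of 29 promoters of mitosis, 2 of 18 of cholesterol genes (11.1%), 0 of 28 of interferon genes and 0 of 14 of the NRF2 list. The windows of ORC1, MCM6 and E2F1 are shown as examples from called genes, with that element in capitals. Matches to different elements were counted separately and could overlap.
ORC1, chr1:52404424-52404463, minus strand: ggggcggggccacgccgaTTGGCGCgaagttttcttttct
MCM6, chr2:135876508-135876550, minus strand: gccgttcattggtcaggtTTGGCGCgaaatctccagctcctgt
E2F1, chr20:33686386-33686422, minus strand: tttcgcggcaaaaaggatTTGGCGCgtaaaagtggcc

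Genes of ribosome assembly, protein folding, protein breakdown and splicing were also higher, with no member of these 4 lists called lower. Of 22 genes of ribosome biogenesis, all listed, 14 were called higher, where 19.5% of all listed genes were. NOP56 and NOP58, core proteins of the box C/D particles that modify ribosomal RNA, were both higher. NOP56 was at 418, 448 and 469 TPM with ESC CM and 198, 209.7 and 208 TPM in control medium. NOP58 was at 149, 164 and 162 TPM with ESC CM and 64.3, 67.5 and 82.99 TPM in control medium. The nucleolar protein NCL was 1.89-fold higher and the ribosome assembly factor BOP1 2.25-fold higher. FBL, the methyltransferase of those particles, and NPM1, a nucleolar chaperone, were close to the threshold at 1.51-fold higher and 1.52-fold higher. FBL lost its call without ESC CM replicate 3 or control replicate 3, and NPM1 without control replicate 2.

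Of 25 proteasome genes, all listed, 18 were called higher, where 19.5% of all listed genes were. All 25 had a higher mean with ESC CM. PSMA3, a subunit of the core particle, was at 213, 232 and 229.8 TPM with ESC CM, against 90.3, 83.3 and 97.8 TPM in control medium. PSMC2, an ATPase of the regulatory cap, was 2.11-fold higher, and PSMD12, a subunit of its lid, 2.097-fold higher. The 14 genes of the constitutive core summed to 5211 ± 98.4 TPM with ESC CM and 3212 ± 82.3 TPM in control medium (SD, n = 3 each). PSMB8 and PSMB9, the subunits that replace core subunits in the immunoproteasome, went the other way, together at 16.9 ± 0.456 TPM with ESC CM and 42.3 ± 5.91 TPM in control medium.

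Of 22 heat shock and chaperonin genes, 21 were listed and 13 were called higher, where 19.5% of all listed genes were. All 21 had a higher mean. HSPE1, the mitochondrial co-chaperonin, was at 509.6, 551 and 532 TPM with ESC CM, against 202, 174 and 215 TPM in control medium. HSPH1, a nucleotide exchange factor for HSP70, was at 402, 384 and 407 TPM with ESC CM and 153, 144 and 149 TPM in control medium. HSP90AA1, the inducible cytosolic HSP90, was at 713, 729.9 and 751 TPM with ESC CM and 312, 316 and 301 TPM in control medium. These 3 were each more than 2-fold higher and did not overlap between groups, nor did 90.7% of all listed genes. HSPA8, the constitutive HSP70, was not called, at 1990.1, 1925 and 2048 TPM with ESC CM and 1743, 1545 and 1556 TPM in control medium. The 8 chaperonin genes summed to 3401 ± 107 TPM with ESC CM and 2202 ± 49.2 TPM in control medium, and 6 of them were called. With no minimum fold 20 of the heat shock list were called higher. Of 22 splicing genes, 20 were listed and 9 called higher. SNRPA1 was at 199, 208 and 214 TPM with ESC CM and 97.3, 98.7 and 94.9 TPM in control medium. SRSF2 was at 268, 280.5 and 292 TPM with ESC CM and 163, 152 and 162 TPM in control medium.

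Nucleotide synthesis and serine synthesis parted. Of 18 listed genes of the nucleotide and one-carbon list, 10 were called higher and 5 lower. Among all listed genes 19.5% were higher and 23.4% lower. PAICS, a purine enzyme, was at 306, 289.7 and 318 TPM with ESC CM, against 156, 145 and 146 TPM in control medium, and the pyrimidine enzymes UMPS and DHODH were 2.02-fold higher and 2.005-fold higher. The 11 purine and pyrimidine genes summed to 1171 ± 31.7 TPM with ESC CM and 745 ± 17.1 TPM in control medium. The 5 genes that were lower make serine or run the mitochondrial one-carbon branch: PHGDH, PSAT1 and PSPH of serine synthesis, and SHMT2 and MTHFD2 in the mitochondrion. PHGDH was at 57.9, 55.3 and 47.7 TPM with ESC CM, against 107, 146 and 118 TPM in control medium. PSAT1 was at 144, 141 and 114 TPM with ESC CM and 239, 319.8 and 291 TPM in control medium. The cytosolic MTHFD1 was 2.15-fold higher. Without control replicate 2 the count of lower genes was 3 in place of 5.

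**Figure D2:**
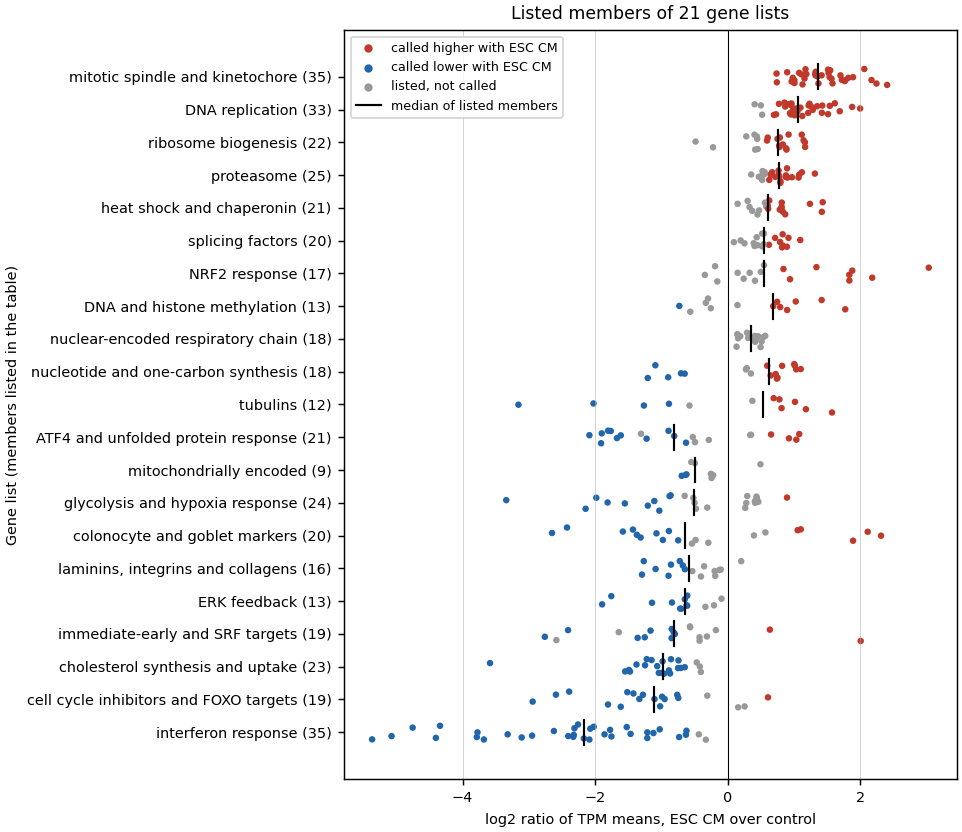
Each point is a listed member of 1 of 21 gene lists, placed by its log2 ratio of TPM means (ESC CM over control), coloured by call, and black bars are medians of the listed members. Mitosis and DNA replication lie to the right of 0 without exception, cholesterol and interferon genes to the left, and tubulins, one-carbon genes and the ATF4 list on both sides.

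Genes that hold cells out of the cycle were lower. Of 24 CDK inhibitors and FOXO targets, 19 were listed, 15 were called lower and 1 higher, where 23.4% and 19.5% of all listed genes were. CDKN1A, the CDK inhibitor p21, was at 23.7, 20.7 and 10.1 TPM with ESC CM, against 109, 124 and 96.2 TPM in control medium, or 6.03-fold lower (limma, log2 difference -2.60 ± 0.29 SE, adjusted p = 0.00108). TXNIP, which binds thioredoxin and limits glucose uptake, was at 15.3, 14.3 and 14.3 TPM with ESC CM and 64.05, 103 and 169.8 TPM in control medium. The control libraries of TXNIP differed widely among themselves and still all lay above the ESC CM libraries. Such a lack of overlap was seen in 90.7% of all listed genes. CDKN1C and CDKN2B, 2 further CDK inhibitors, were 3.06-fold lower and 2.86-fold lower, and KLF6, a zinc finger factor, 2.43-fold lower. The insulin receptor INSR and its adaptor IRS2 were 2.03-fold lower and 2.15-fold lower. The member that was higher was TRIB2, a pseudokinase, described with the genes of the study's own assay.

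Of 17 p53 targets, 12 were listed, 4 were lower and none was higher, against 23.4% and 19.5% of all listed genes. BBC3, a pro-death BH3 protein, was at 17.3, 18.1 and 11.1 TPM with ESC CM, against 41.8, 48.4 and 46.98 TPM in control medium. SESN2, a stress-induced inhibitor of TORC1, was at 14.2, 14.9 and 6.29 TPM with ESC CM and 32.8, 53.6 and 46.7 TPM in control medium. BAX, an effector of cell death in the BCL2 family, was not called, at 231, 221 and 224 TPM with ESC CM and 189, 172 and 154 TPM in control medium. In the BCL2 list 6 of 9 listed genes were lower, on both sides of the balance between survival and death. The survival gene BCL2L1 was 1.58-fold lower, and the death genes BMF and BIK were 3.09-fold lower and 3.12-fold lower.

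Sterol genes were lower as a group. The list of cholesterol synthesis and uptake has 25 genes, of which 23 were listed, and all 23 had a lower mean with ESC CM. Of these, 20 were called lower, where 23.4% of all listed genes were. SREBP2 activates this set when membranes run short of cholesterol. The list summed to 2397, 2438 and 2401 TPM with ESC CM, against 4800, 4433 and 4405 TPM in control medium. HMGCS1, an early enzyme of the pathway, was at 100.4, 108 and 104 TPM with ESC CM, against 296, 257 and 259 TPM in control medium, or 2.596-fold lower (limma, log2 difference -1.37 ± 0.07 SE, adjusted p = 1.23e-04). CYP51A1, which demethylates lanosterol, was at 94.3, 93.5 and 90.7 TPM with ESC CM and 262, 255 and 257 TPM in control medium. INSIG1, which takes part in retaining SREBP, was at 85.99, 92.1 and 87.2 TPM with ESC CM and 258, 236 and 251 TPM in control medium. The groups lay far apart in all 3 genes. SQLE, squalene epoxidase, was 1.85-fold lower. The sterol element TCACNCCAC was found in 1 of the 18 promoters with an entry (5.56%), that of SREBF2, against 0.875% of all promoters and 1 of 28 in the interferon list. The count of 20 was the same in every fit that left out 1 library.

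Fatty acid genes did not move together. Of 18 members, 15 were listed, 5 lower and 2 higher, where 23.4% and 19.5% of all listed genes were. SCD, the desaturase that makes oleate, was at 369.7, 358 and 353 TPM with ESC CM, against 906, 921 and 958 TPM in control medium. ACSL1, an acyl-CoA synthetase, was at 30.04, 30.5 and 29.8 TPM with ESC CM and 80.3, 71.5 and 79.6 TPM in control medium. FASN, fatty acid synthase, was not called, at 179, 194 and 194 TPM with ESC CM and 238, 222 and 209 TPM in control medium. ME1, which supplies NADPH, was 1.58-fold higher, and GPAM, the first acyltransferase of glycerolipid synthesis, 1.88-fold higher. Of the PPAR targets and genes of fatty acid oxidation 12 of 20 were listed, 7 lower and 1 higher. FABP1, a liver and gut fatty acid carrier, was at 2.74, 4.81 and 4.61 TPM with ESC CM and 9.401, 15.8 and 22.4 TPM in control medium. PLIN2, a lipid droplet coat, was at 7.64, 7.54 and 7.18 TPM with ESC CM and 12.5, 12.4 and 13.4 TPM in control medium. Without ESC CM replicate 1 the count of 7 was 3, and without control replicate 3 it was 4. Of 8 listed LXR targets 3 were lower, against 23.4% of all listed genes, with ABCG1, a cholesterol exporter, 1.67-fold lower.

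Genes induced by interferon were lower almost throughout. All 35 members of the list were listed and all 35 had a lower mean with ESC CM, with a median log2 ratio of -2.17. Of these, 33 were called lower, where 23.4% of all listed genes were. The list summed to 799.6, 798.1 and 806.3 TPM with ESC CM, against 1964, 3048 and 2900 TPM in control medium. Control replicate 1 was the lowest control library in 35 of 35 members, although over all listed genes it was the lowest in 32.6%. Without control replicate 1 the count called lower was again 33, and with 1 of the other libraries left out it was 29 or 30.

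Enzymes, RNA-binding proteins and membrane proteins of the response were among the called genes. OAS2 and OAS1, which make the activator of RNase L, were both lower. OAS2 was at 1.36, 2.404 and 1.91 TPM with ESC CM and 25.3, 47.6 and 46.99 TPM in control medium. OAS1 is given with the qPCR genes. IFIT1, which binds foreign RNA, was at 4.43, 5.24 and 4.54 TPM with ESC CM and 30.6, 55.9 and 55.3 TPM in control medium. MX2, an antiviral GTPase, was at 1.12, 0.7897 and 0.998 TPM with ESC CM and 11.3, 22.9 and 24.7 TPM in control medium. The highest ESC CM library stayed below the lowest control library in each, and 90.7% of all listed genes had no overlap of the groups. IFI44L was 33.6-fold lower, at 0.363, 0.5299 and 0.207 TPM with ESC CM and 6.903, 12.3 and 17.7 TPM in control medium, and RSAD2, which makes an antiviral nucleotide, 41.2-fold lower, at 0.0162, 0.248 and 0.246 TPM with ESC CM and 4.01, 9.34 and 7.65 TPM in control medium. Both rest on ESC CM levels under 1 TPM, which limits how exactly their ratios are known. IFITM1, a membrane protein that blocks viral entry, was at 0.571, 1.09 and 5.34 TPM with ESC CM and 29.4, 34.8 and 32.3 TPM in control medium, with ESC CM replicate 3 above the other ESC CM libraries, and it shares sequence with other genes of its family. IFI27 was the most abundant member, at 138, 138 and 146 TPM with ESC CM, against 485, 819 and 795 TPM in control medium (limma, log2 difference -2.27 ± 0.19 SE, adjusted p = 3.87e-04). ISG15, a ubiquitin-like modifier, was 2.76-fold lower. BST2, a restriction factor, was not called, at 105, 103 and 104 TPM with ESC CM and 114, 138 and 141 TPM in control medium.

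An interferon-stimulated element, written here as GAAANNGAA, was found on either strand in 17 of the 28 promoters with an entry (60.7%), against 7.06% of all promoters. In other lists it was found in 1 of 29 promoters of mitosis, 0 of 28 of DNA replication, 1 of 18 of cholesterol genes and 2 of 14 of the NRF2 list. The windows of RSAD2, IFI44L, IFITM1 and IFIT1 carry it in capitals and are shown because these genes had some of the largest decreases. In IFIT1 the match lies on the opposite strand.
RSAD2, chr2:6865788-6865832, plus strand: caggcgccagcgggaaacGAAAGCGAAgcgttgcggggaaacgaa
IFI44L, chr1:78620357-78620401, plus strand: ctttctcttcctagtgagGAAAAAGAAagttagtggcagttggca
IFITM1, chr11:313982-314026, plus strand: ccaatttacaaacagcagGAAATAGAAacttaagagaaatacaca
IFIT1, chr10:89392503-89392547, plus strand: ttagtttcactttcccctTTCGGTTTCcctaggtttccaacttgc

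Antigen presentation by MHC class I, which interferon also induces, was lower in part. Of 18 members 14 were listed, 6 lower and 1 higher, where 23.4% and 19.5% of all listed genes were. TAP1, the peptide transporter, was at 5.56, 5.31 and 5.47 TPM with ESC CM, against 16.9, 25.6 and 22.4 TPM in control medium. HLA-E, a nonclassical class I gene, was at 59.6, 56.97 and 55.6 TPM with ESC CM and 118, 133 and 133 TPM in control medium. B2M, the shared light chain and the most abundant member, was not called, at 758, 803 and 780.0 TPM with ESC CM and 822, 886 and 918 TPM in control medium. The member that was higher was CALR, a chaperone of the endoplasmic reticulum, at 702, 662 and 639 TPM with ESC CM and 371, 354 and 327 TPM in control medium.

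**Figure D3:**
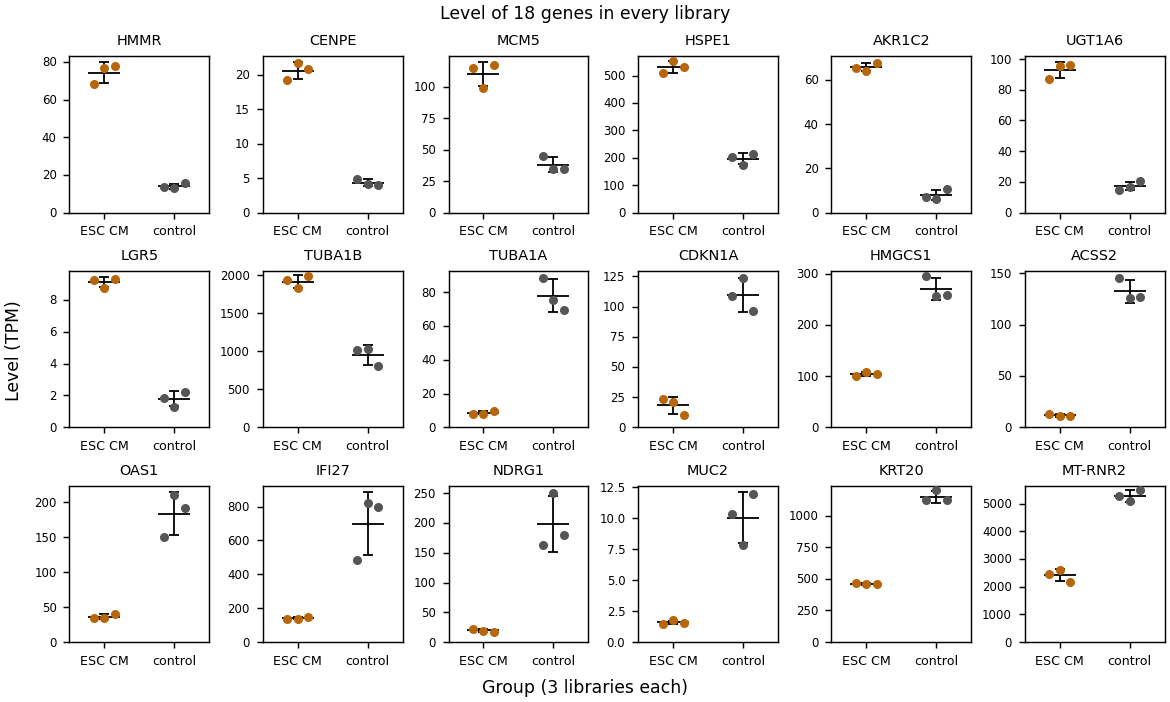
Level in TPM (axes start at 0) of 18 genes in each of the 3 ESC CM libraries (left, orange) and the 3 control libraries (right, grey), with bars for the mean and SD. The groups do not overlap in any of these 18 called genes, nor in 90.7% of all listed genes, and the control libraries of IFI27, NDRG1 and MUC2 are more spread than the ESC CM libraries.

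Genes that signalling pathways induce as they fire were called lower in part after 24 h of ESC CM. Of 22 immediate-early genes and targets of SRF, 19 were listed, 9 lower and 2 higher, where 23.4% and 19.5% of all listed genes were. ESC CM replicate 3 was the lowest ESC CM library in 15 of the 19, against 33.9% of all listed genes, and without it 11 were lower and 2 higher. FOSB and FOS, subunits of AP-1, were lower. FOSB was at 1.85, 2.35 and 1.61 TPM with ESC CM and 9.28, 12.5 and 9.03 TPM in control medium. FOS was at 17.1, 19.9 and 14.97 TPM with ESC CM and 40.1, 47.8 and 45.5 TPM in control medium. JUNB, a further subunit, was 2.24-fold lower. ACTG1, cytoplasmic gamma-actin and a target of SRF, was at 1841, 1706 and 1520.3 TPM with ESC CM, against 3219.7, 3160.4 and 2724 TPM in control medium. MYC was not called, at 223, 215 and 206 TPM with ESC CM and 219.9, 256 and 251 TPM in control medium. Of 15 genes of ERK feedback, 13 were listed, 10 were lower and none higher. DUSP6, a phosphatase of ERK, was at 48.4, 45.2 and 49.3 TPM with ESC CM, against 74.7, 74.5 and 74.9 TPM in control medium. SPRY4, an inhibitor of receptor signalling, was at 22.3, 23.1 and 21.4 TPM with ESC CM and 38.5, 43.9 and 37.2 TPM in control medium. DUSP1, which acts on several MAP kinases, was 3.38-fold lower. The count of 10 was between 7 and 10 with 1 library left out.

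Of 10 listed receptors and ligands of the EGF family 3 were lower and none higher, a share near the 23.4% of all listed genes. EGFR was at 26.1, 23.3 and 23.7 TPM with ESC CM and 37.04, 39.9 and 36.99 TPM in control medium. The ligand HBEGF was at 15.7, 16.1 and 8.67 TPM with ESC CM and 30.5, 47.3 and 40.2 TPM in control medium. Of 13 listed targets of TGF-beta and BMP, 5 were lower and none higher. PMEPA1, an inhibitor of TGF-beta signalling, was at 57.6, 54.03 and 52.8 TPM with ESC CM and 111, 130.1 and 116 TPM in control medium and the ligand BMP2 4.11-fold lower. Of 14 listed Notch genes, 7 were lower and none higher. HES4, a Notch target, was at 2.26, 2.44 and 2.63 TPM with ESC CM, against 9.97, 10.1 and 11.8 TPM in control medium, the ligand DLL4 was 2.87-fold lower, and ATOH1, the factor of secretory cells that Notch represses, was 1.95-fold lower. Several Notch genes were scarce, and among members of at least 5 TPM the count was 2. Of 8 listed YAP targets 2 were called higher and 1 lower, where 19.5% and 23.4% of all listed genes were. The 2 calls fell to 0 without ESC CM replicate 1, control replicate 1 or control replicate 2, and the lower one, CTGF, was lost without ESC CM replicate 2 or any 1 of the control libraries.

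Of 20 stem cell and Wnt genes 9 were listed, 2 higher and 3 lower, shares near the 19.5% and 23.4% of all listed genes. LGR5, a receptor for R-spondin and a marker of colonic stem cells, was at 9.27, 8.75 and 9.29 TPM with ESC CM, against 1.84, 1.28 and 2.24 TPM in control medium, or 5.098-fold higher (limma, log2 difference 1.87 ± 0.12 SE, adjusted p = 1.77e-04). DKK1, a secreted Wnt inhibitor, was at 51.8, 46.01 and 49.5 TPM with ESC CM and 23.04, 20.2 and 15.2 TPM in control medium. The Wnt target AXIN2 was not called, at 48.7, 47.3 and 48.5 TPM with ESC CM and 39.7, 42.3 and 38.5 TPM in control medium. The 3 lower members were SP5, NKD1 and NOTUM, and their count depended on single libraries: it was 0 without ESC CM replicate 1, 1 without ESC CM replicate 2, control replicate 1 or control replicate 2, and 2 without either of the others. NKD1 and NOTUM, Wnt inhibitors, were picked out after their values were seen.

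Of 22 NF-kB targets and chemokines 16 were listed, 5 lower and 1 higher, where 23.4% and 19.5% of all listed genes were. RELB, a subunit of NF-kB, was at 8.95, 7.57 and 8.29 TPM with ESC CM, against 27.1, 25.6 and 24.9 TPM in control medium, and CCL20, a chemokine of gut epithelium, 2.74-fold lower. CXCL1, a chemokine for neutrophils, was at 4.41, 6.41 and 6.06 TPM with ESC CM and 2.55, 4.04 and 3.26 TPM in control medium, called higher, and lost that call in 4 of the 6 fits with 1 library left out. LCN2, a siderophore-binding protein, was not called, at 229.9, 201 and 195 TPM with ESC CM and 225, 378 and 365 TPM in control medium, with control replicate 1 inside the ESC CM range. Of 10 listed genes of the IL-6 and acute phase list, 5 were lower and none higher, with 3 lower without control replicate 2. IL6R, the receptor for IL-6, was at 1.699, 1.28 and 1.03 TPM with ESC CM, against 8.21, 12.6 and 9.87 TPM in control medium. SERPINA1, alpha-1-antitrypsin, was not called, at 426, 413 and 397 TPM with ESC CM and 605, 687 and 522 TPM in control medium.

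Genes of the ATF4 pathway and chaperones of the endoplasmic reticulum, both held in the list of the unfolded protein response, included calls in both directions. Of 24 members 21 were listed, 11 lower and 4 higher, where 23.4% and 19.5% of all listed genes were. ATF4, the factor that cells make when amino acids are short, was at 479.6, 486 and 429.7 TPM with ESC CM, against 708, 742 and 707 TPM in control medium, and lost its call without ESC CM replicate 3. Its targets TRIB3, a pseudokinase, and CTH, of cysteine synthesis, were lower. TRIB3 was at 119.5, 107 and 49.5 TPM with ESC CM and 281, 340.4 and 317 TPM in control medium. CTH was at 9.103, 9.63 and 3.97 TPM with ESC CM and 20.7, 32.5 and 31.5 TPM in control medium. PCK2, a mitochondrial carboxykinase, was 3.18-fold lower. The higher members included HSP90B1, a chaperone of the endoplasmic reticulum, at 815, 798 and 764 TPM with ESC CM, against 369, 399 and 393 TPM in control medium. HSPA5, the central chaperone of that compartment, was at 353, 322 and 284 TPM with ESC CM and 178, 223 and 209.6 TPM in control medium and was picked out after its values were seen.

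Single libraries stood apart in the ATF4 genes. ESC CM replicate 3 was the lowest ESC CM library in 19 of 21 listed members, against 33.9% of all listed genes, and control replicate 1 was the lowest control library in 17 of 21. Without the chaperones, 16 members summed to 1570, 1537 and 1157 TPM with ESC CM, against 2460, 2925 and 2744 TPM in control medium. The count called lower was 10 without ESC CM replicate 3, 10 without control replicate 1 and 8 without control replicate 2 or 3. CHAC1, a target that degrades glutathione, was at 23.9, 25.6 and 8.66 TPM with ESC CM and 53.03, 81.8 and 68.3 TPM in control medium, and its call was lost without control replicate 2 or 3. A grouping of 7 chaperones of the endoplasmic reticulum, made after the values were seen, averaged 2683 ± 125 TPM with ESC CM and 1535 ± 35.9 TPM in control medium (SD, n = 3 each).

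Of 16 listed transporters of amino acids and glucose 8 were lower and none higher. SLC1A4, for alanine and serine, was at 6.89, 5.81 and 4.33 TPM with ESC CM, against 21.8, 33.6 and 29.1 TPM in control medium. SLC6A9, for glycine, was at 3.89, 3.51 and 1.84 TPM with ESC CM and 10.9, 25.7 and 20.9 TPM in control medium. SLC7A5, for large neutral amino acids, was at 124, 114 and 96.7 TPM with ESC CM and 184, 254 and 230.3 TPM in control medium. SLC5A1, which takes up glucose with sodium, was 4.43-fold lower. Of 18 listed aminoacyl-tRNA synthetases, which charge tRNAs, 4 were lower and 2 higher, against 23.4% and 19.5% of all listed genes, and as many had a higher as a lower mean (9 each). WARS, for tryptophan and also induced by interferon, was at 157, 137 and 127 TPM with ESC CM and 261, 426 and 357 TPM in control medium. SARS, for serine, was at 215, 202 and 167 TPM with ESC CM and 314, 384 and 352 TPM in control medium. RARS, for arginine, was 1.66-fold higher, and FARSA, for phenylalanine, 1.63-fold higher. Of 19 listed lysosomal and autophagy genes 7 were lower and 1 higher. WIPI1 and ULK1, of autophagosome formation, were 3.63-fold lower and 2.85-fold lower, NPC1, the lysosomal cholesterol exporter, was 2.48-fold lower, and GLA, a lysosomal galactosidase, was 1.93-fold higher.

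**Figure D4:**
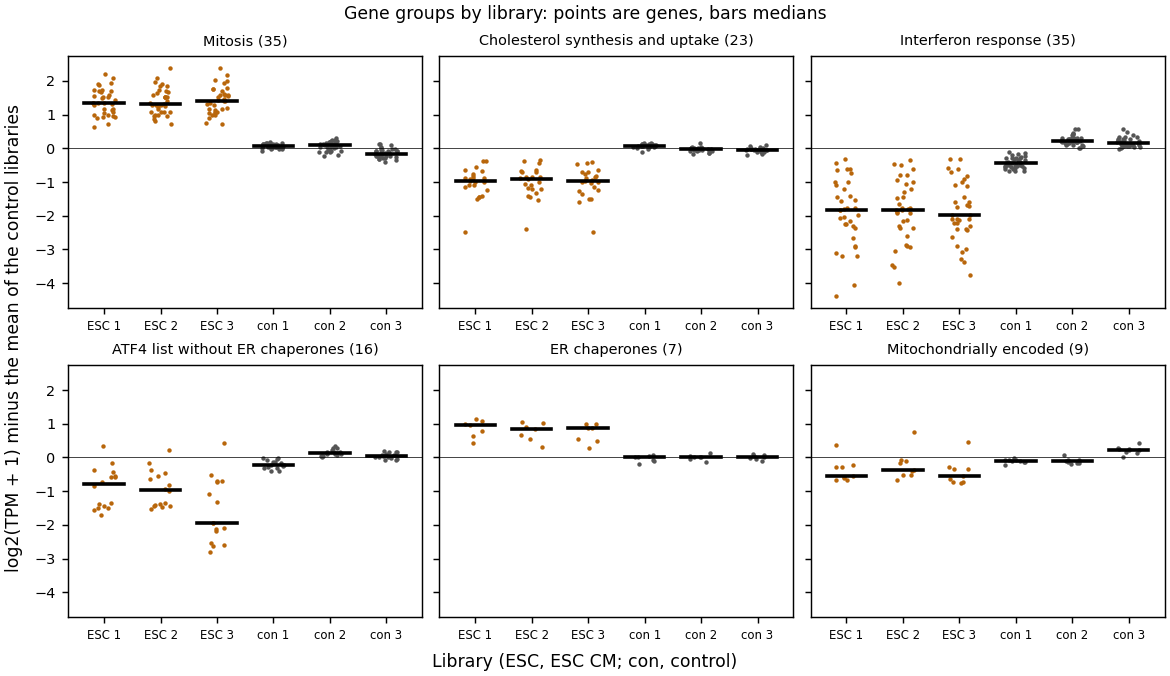
Each point is a gene in 1 library, given as log2(TPM + 1) minus that gene's mean over the 3 control libraries, for 6 gene groups, and bars are medians (orange, ESC CM; grey, control). Interferon genes are lowest among the controls in control replicate 1, and ATF4 genes are lowest in ESC CM replicate 3.

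Of 33 genes of glycolysis and the hypoxia response 24 were listed, 10 lower, 1 higher and 13 not called. Among all listed genes 23.4% were lower and 19.5% higher. The enzymes PKM, ENO1 and TPI1 had higher means with ESC CM and were not called. PKM was at 2025, 1922 and 1993 TPM with ESC CM and 1429.7, 1538 and 1342 TPM in control medium. GPI, which converts glucose 6-phosphate, was the member called higher, at 451, 423 and 454 TPM with ESC CM and 239, 245 and 231 TPM in control medium. The members called lower included NDRG1, given above. ANKRD37, a hypoxia target, was at 1.61, 1.78 and 1.27 TPM with ESC CM and 7.52, 5.68 and 7.41 TPM in control medium. ALDOC, a brain-type aldolase, was at 17.98, 14.7 and 15.6 TPM with ESC CM and 61.2, 70.4 and 58.9 TPM in control medium. BNIP3L, a receptor for mitophagy, was 2.31-fold lower. DDIT4, an inhibitor of TORC1 that ATF4 also drives, was at 88.2, 110.1 and 31.9 TPM with ESC CM and 195, 311 and 302 TPM in control medium and lost its call without ESC CM replicate 1, control replicate 2 or control replicate 3.

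None of the 18 listed nuclear genes of the respiratory chain was called, since none passed the fold of 1.5. All 18 had a higher mean with ESC CM, with ATP5F1A, of the ATP synthase, at 332, 317 and 341 TPM with ESC CM, against 251, 242 and 245 TPM in control medium. Of 9 listed genes encoded in the mitochondrion 8 had a lower mean and 3 were called lower, against 23.4% of all listed genes. MT-CO2, a subunit of cytochrome oxidase and the most abundant listed transcript, was at 8543, 9186 and 7914 TPM with ESC CM, against 12907, 12266 and 14299 TPM in control medium. MT-ND3, of complex I, was at 2482, 2463 and 2346 TPM with ESC CM and 3716, 4143 and 3936 TPM in control medium. Both mitochondrial ribosomal RNAs were lower, with MT-RNR1, named after its values were seen, at 713, 757 and 692 TPM with ESC CM and 1184, 1091 and 1234 TPM in control medium. The 2 rRNAs together averaged 3135 ± 244.5 TPM with ESC CM and 6443 ± 275 TPM in control medium (SD, n = 3 each). Without control replicate 3 the count of mitochondrial messenger genes called lower was 1, since MT-CO2 and MT-CYB then lost their calls, and MT-CO2 also lost its call without ESC CM replicate 3.

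Antioxidant and detoxifying genes were higher in part. Of 17 listed members of the NRF2 list 8 were called higher and none lower. AKR1C3 and AKR1B10, aldo-keto reductases of steroids and retinal, were among them. AKR1C3 was at 209, 206 and 206 TPM with ESC CM and 48.2, 36.3 and 52.7 TPM in control medium. AKR1B10 was at 244, 243 and 248 TPM with ESC CM and 83.4, 55.02 and 67.9 TPM in control medium. GCLM, of glutathione synthesis, was 2.53-fold higher. AKR1C1, AKR1C2 and AKR1C3 have similar sequences, and the split of reads between them is uncertain. NQO1, a quinone reductase and the classic marker of this response, had the groups apart and missed the fold threshold, at 812, 822 and 830.2 TPM with ESC CM and 584, 569 and 533 TPM in control medium. The antioxidant element TGACNNNGC stood in 3 of 14 promoters with an entry (21.4%), against 3013 of all 27305 promoters (11%). In other lists it stood in 5 of 29 promoters of mitosis (17.2%), 4 of 28 of DNA replication (14.3%), 3 of 28 of interferon genes (10.7%) and 0 of 18 of cholesterol genes. Of 9 listed UGT1A genes, a family grouped after the values were seen, 8 were called higher. They share their last exons, so their separate values, such as UGT1A1 at 22.4, 20.5 and 19.9 TPM with ESC CM and 6.67, 6.06 and 6.599 TPM in control medium, are uncertain. Of 12 listed genes of xenobiotic conjugation, a list that holds part of that family, 4 were higher and 2 lower. Of 9 listed targets of retinoid, vitamin D and aryl hydrocarbon receptors 3 were lower and 2 higher, and the 2 became 1 without control replicate 1 or 3. Over all listed genes 23.4% were lower and 19.5% higher.

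Of 7 listed metallothionein and zinc genes 5 were higher and none lower, with MT2A at 37.5, 39.3 and 41.6 TPM with ESC CM, against 15.8, 18.4 and 12.4 TPM in control medium. MT1E was at 93.7, 91.8 and 109 TPM with ESC CM and 40.4, 45.1 and 31.8 TPM in control medium. Metallothioneins bind zinc and copper, and their close copies can share reads. Of 18 listed selenium genes 7 were higher and 3 lower. GPX1 and GPX3, peroxidases that need selenium, were 1.69-fold higher and 1.89-fold higher, and SELENOH, a nuclear selenoprotein, was at 166, 177 and 169 TPM with ESC CM and 89.04, 75.6 and 84.995 TPM in control medium. The 3 lower members averaged under 5 TPM, and only 1 of them was called without ESC CM replicate 2, ESC CM replicate 3 or control replicate 2. Of 10 listed iron genes 2 were lower and none higher, where 23.4% and 19.5% of all listed genes were. SLC40A1, the iron exporter ferroportin, was at 48.3, 49.1 and 50.9 TPM with ESC CM and 92.7, 86.5 and 96.8 TPM in control medium. FTH1, the ferritin heavy chain, was not called, at 6468, 5852 and 6018 TPM with ESC CM and 5185, 5118 and 5240.1 TPM in control medium.

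Of 31 markers of mature colon cells 20 were listed, 10 lower and 5 higher. Over all listed genes 23.4% were lower and 19.5% higher, and between 1 and 5 TPM 47.5% were lower. KRT20, a keratin of surface colonocytes, was at 468, 460.3 and 455 TPM with ESC CM, against 1120.4, 1199 and 1120.5 TPM in control medium, or 2.49-fold lower (limma, log2 difference -1.31 ± 0.06 SE, adjusted p = 7.99e-05). MUC2, the gel-forming mucin of goblet cells, was at 1.48, 1.76 and 1.57 TPM with ESC CM and 10.4, 7.87 and 11.9 TPM in control medium. TFF3, its companion peptide, was at 12.8, 16.6 and 18.8 TPM with ESC CM and 46.9, 32.2 and 45.5 TPM in control medium. CDX2, a factor of intestinal identity, was at 3.85, 2.88 and 4.21 TPM with ESC CM and 9.55, 11.9 and 11.2 TPM in control medium. Of the 5 higher members, CEACAM6, an adhesion protein named after its values were seen, was at 22.1, 18.1 and 20.6 TPM with ESC CM and 9.46, 9.17 and 9.699 TPM in control medium and the other 4 averaged under 5 TPM. VIL1, villin of the brush border, was not called, at 153, 141 and 140.5 TPM with ESC CM and 189.6, 180.0 and 163 TPM in control medium.

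Epithelial markers were present in all 6 libraries. KRT8 was at 4773, 4499.5 and 4653 TPM with ESC CM, against 5140.4, 5803 and 5268 TPM in control medium. EPCAM, the epithelial adhesion molecule, was at 647, 648 and 649 TPM with ESC CM and 524, 503 and 578 TPM in control medium. Neither was called. CDH1, E-cadherin, was at 133, 127 and 119 TPM with ESC CM and 217, 237 and 235 TPM in control medium. KRT19 was at 773, 737 and 795 TPM with ESC CM and 1316, 1429 and 1258 TPM in control medium. The claudin CLDN7 was at 192, 176 and 177 TPM with ESC CM and 307, 346 and 299 TPM in control medium. These 3 were called lower, and of 13 listed keratin and junction genes 6 were lower and none higher. Among all listed genes 23.4% were lower and 19.5% higher. Of 16 listed laminins, integrins and collagens 8 were lower and none higher, among them parts of the hemidesmosome, which joins epithelia to their basement membrane. ITGA2, a collagen receptor subunit, was at 25.2, 22.01 and 22.96 TPM with ESC CM and 59.8, 56.6 and 55.5 TPM in control medium. ITGB4, the hemidesmosomal integrin, was 1.81-fold lower. Of 6 listed genes of the mesenchymal transition 3 were lower. PLAUR, the urokinase receptor, was at 39.1, 35.4 and 38.9 TPM with ESC CM and 118, 147 and 102 TPM in control medium, and MMP14, a membrane protease, 4.39-fold lower.

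Tubulin genes divided by isotype. Of 12 listed tubulins 6 were higher and 4 lower. TUBA1A, an alpha-tubulin best known from neurons, was at 8.14, 8.15 and 9.901 TPM with ESC CM, against 88.6, 75.6 and 69.4 TPM in control medium, or 8.92-fold lower (limma, log2 difference -3.02 ± 0.11 SE, adjusted p = 6.55e-05). TUBB3, a beta-tubulin of the same kind, was 4.07-fold lower. TUBA1B, the main alpha-tubulin here, was at 1933, 1831 and 1991 TPM with ESC CM, against 1015, 1032 and 802 TPM in control medium. TUBA4A was at 200.1, 201 and 235 TPM with ESC CM and 77.998, 66.4 and 69.4 TPM in control medium. The coding regions of these genes are alike, so part of their reads may be shared. Of 10 listed histone genes 3 were called higher and 3 lower, against 19.5% and 23.4% of all listed genes. The histone variant genes H2AFX and H2AFZ were higher. H2AFX was at 227, 207 and 242 TPM with ESC CM and 121, 118 and 94.5 TPM in control medium. H2AFZ was 1.57-fold higher. The variant genes H2AFY and H2AFV were not called. The histone genes HIST2H2BE and HIST1H2AC were 4.75-fold lower and 2.29-fold lower. HIST1H2BK went the other way, with a mean of 103.4 TPM with ESC CM and 60.09 TPM in control medium.

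Of 13 listed genes of DNA and histone methylation 7 were higher and 1 lower. UHRF1, which brings DNMT1 to new DNA, was at 61.7, 58.3 and 67.6 TPM with ESC CM, against 21.2, 16.8 and 16.9 TPM in control medium. DNMT1, the maintenance methyltransferase, was at 81.9, 81.5 and 85.95 TPM with ESC CM and 44.01, 46.5 and 43.5 TPM in control medium. SUV39H2, a histone H3 methyltransferase, was at 32.96, 33.2 and 35.3 TPM with ESC CM and 12.6, 13.5 and 11.9 TPM in control medium. The Polycomb genes EED, EZH2 and SUZ12 were 2.04-fold higher, 1.68-fold higher and 1.61-fold higher. MAT2A, which makes the methyl donor, was not called, at 262, 273 and 271 TPM with ESC CM and 289, 346 and 354 TPM in control medium. Of 11 listed insulin and IGF genes 5 were lower and 1 higher: GRB10, an inhibitor of insulin signalling, was 2.498-fold lower, IGF2R 1.75-fold lower and PIK3R1, a subunit of PI3-kinase, 2.02-fold higher. TSC22D3, a glucocorticoid-induced gene that FOXO factors also drive, was at 36.5, 39.02 and 23.8 TPM with ESC CM and 98.5, 131 and 144 TPM in control medium. In its list 2 of 10 listed genes were lower and none higher, against 23.4% and 19.5% of all listed genes.

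A set of 6 genes had also been chosen for qPCR with these samples in view, so their direction here is no independent evidence. The paper's qPCR set CM of obese CRC-MPS against ESC CM, which is a different comparison from ESC CM against control. Of the 6, 5 were listed, 3 called higher and 1 lower. CENPE is given above. BCCIP, a partner of BRCA2 and p21, was at 162, 174 and 179 TPM with ESC CM, against 57.5, 53.8 and 61.8 TPM in control medium, or 2.97-fold higher (limma, log2 difference 1.56 ± 0.07 SE, adjusted p = 9.47e-05). TRIB2 was at 7.84, 9.67 and 8.46 TPM with ESC CM and 5.798, 5.59 and 5.67 TPM in control medium, 1.52-fold higher, and lost its call without ESC CM replicate 2. OAS1 was at 34.4, 34.4 and 40.7 TPM with ESC CM, against 149, 209.8 and 191 TPM in control medium, or 5.02-fold lower. SNAI1, a repressor of E-cadherin, was not called, at 1.41, 1.199 and 1.36 TPM with ESC CM and 1.52, 2.07 and 3.06 TPM in control medium (limma, log2 difference -0.44 ± 0.16 SE, adjusted p = 0.194), and NNMT, nicotinamide N-methyltransferase, was not listed.

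The table of CRC-MPS CM against the same control libraries was normalised separately and shares those libraries, so its values stand beside these without a test. In it BCCIP was at 193 ± 10.2 TPM with CRC-MPS CM and 57.9 ± 3.995 TPM in control medium (SD, n = 3 each), and OAS1 at 20.3 ± 3.44 TPM with CRC-MPS CM and 184 ± 30.8 TPM in control medium. SNAI1 was at 5.096 ± 0.438 TPM with CRC-MPS CM and 2.22 ± 0.776 TPM in control medium, and NNMT at 102 ± 3.33 TPM with CRC-MPS CM and 81.7 ± 8.29 TPM in control medium. IFI27 was at 31.8 ± 2.92 TPM with CRC-MPS CM and 696 ± 187 TPM in control medium, LGR5 at 6.41 ± 0.451 TPM with CRC-MPS CM and 1.79 ± 0.4797 TPM in control medium and AKR1C2 at 93.6 ± 10.2 TPM with CRC-MPS CM and 8.04 ± 2.24 TPM in control medium.

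Markers of cells other than HT29 were mostly not listed, so their levels are unknown here. Of 12 adipocyte markers 5 were listed and 4 of them lower (2 without control replicate 3), and the 7 not listed included ADIPOQ, LEP and PLIN1, which define the cell. Of 14 stromal markers only ACTA2 was listed, at 0.932, 0.821 and 1.01 TPM with ESC CM and 1.76, 2.48 and 1.43 TPM in control medium, and COL1A1, DCN and PDGFRA were not. Of 12 leukocyte markers 2 were listed, CD68 and LYZ, both lower in mean with ESC CM, and of 8 endothelial markers 2 were listed, both under 1 TPM in every library. The summed level of listed stromal markers ranged from 0.821 to 1.01 TPM with ESC CM and from 1.43 to 2.48 TPM in control medium. That of adipocyte markers ranged from 124 to 130.5 TPM with ESC CM and from 188 to 196 TPM in control medium, mostly PNPLA2 and LIPE, lipases that are not confined to adipocytes. That of leukocyte markers ranged from 1750 to 1808 TPM with ESC CM and from 1962 to 2242 TPM in control medium, nearly all from LYZ, lysozyme, which some gut epithelial cells also make. Endothelial markers summed to 0.233 to 0.261 TPM with ESC CM and to 0.213 to 0.254 TPM in control medium. Their part in the other results was not tested.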

How the data were processed

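The members and gene lists were chosen with earlier results of these data known. RNA of HT29 cells (3 ESC CM, 3 control and 3 CRC-MPS CM libraries) was sequenced, and the submitters' processing notes name hg38, STAR 2.6.1d, kallisto 0.46.0 and DESeq2. The order of these steps, the annotation they used and the total reads are not stated by any source at hand. The labels and the study's methods name different RNA extraction kits, and the methods state serum starvation before treatment. The authors deposited 1 table per pair of groups, each with a TPM column per library, read as TPM from the column names and values, and a mean normalized count over the 6 libraries, an average signal used here only to describe depth. The deposited tables also hold the authors' log2 fold changes with their errors, test statistics, p-values and adjusted p-values, which were not used. No per-sample column was left without a sample. The tables hold 10007 distinct names for ESC CM against control, of which 13 that a spreadsheet had turned into dates were dropped, and 631 rows without a name were left out. The median mean normalized count of the listed genes was 894.6, and 369 had one under 10.

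The test was limma's lmFit and eBayes on log2(TPM + 1) over the 6 libraries with no covariate (limma 3.58.1, R 4.3.3), with Benjamini-Hochberg adjustment over 58780 tests, since genes outside the table were tested by the authors but are not in it. Fold changes are ratios of TPM means, and errors are SDs over 3 libraries. No permutation test was run on single genes, since 3 against 3 libraries cannot go below p = 0.1. The pipeline was tested on simulated data. Named genes were all qPCR genes, the 15 called in each direction with the largest ratio and at least 10 TPM in the higher group, the 12 called in each direction with the largest TPM difference, up to 6 called members of each list with at least 5 TPM in the higher group, and the 3 most abundant listed members of each list. Genes said to be picked out later, PSPH, BRCA2, E2F1 and SREBF2, and the groupings within lists (helicase, core proteasome, chaperonin, nucleotide, mitochondrial rRNA) fall outside this rule. Some genes that the rule names are not reported here. Alternatives were pseudocounts of 0.1 and 5, minimum means of 1 and 5 TPM, adjustment over listed genes alone, other minimum folds, trended and robust moderation, rescaling by the median of ratios, a replicate block and each library left out. Promoter sequences are from the RefSeq table of GRCh38.p14.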

Additional observations from a re-analysis of the deposited data

How the results depend on the processing

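Between 3797 and 4128 genes were called with 1 library left out (higher 1762 to 1998, lower 2035 to 2251), against 4294 with all 6. With no minimum fold 7091 genes were called, 3606 higher and 3485 lower, and with a minimum of 2-fold 2053 were called, 719 higher and 1334 lower. A minimum mean of 5 TPM left 2910 called, 1576 higher and 1334 lower, so the share called higher was 54.2% in place of 45.5%. The other alternatives (pseudocounts, a minimum mean of 1 TPM, adjustment over listed genes, trended moderation, rescaling, the replicate block) gave 3823 to 4771, and no alternative called a gene in the direction opposite to its reported call. Whether the replicate numbers pair the cultures is not stated. Same-numbered libraries correlated at -0.064, -0.047 and -0.106 in their deviations from the group means. Deviations from a mean of 3 libraries are tied to each other, so these values cannot decide it. The fit with the replicate block called 4159 genes, 1912 higher and 2247 lower. The depth behind each value is unknown, so genes under 1 TPM carry an error that cannot be given, and the table's own selection means that shares called here are not shares of the transcriptome.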

Other observations

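Gene families outside the lists were grouped by symbol after the values were seen, and they are described by counts alone. Among all listed genes 19.5% were called higher and 23.4% lower. Of 71 listed mitochondrial ribosomal proteins 34 were called higher with ESC CM and none lower, and 69 had a higher mean. They summed to 8137, 8238 and 8544 TPM with ESC CM, against 5599.9, 5398 and 5435 TPM in control medium. Of 60 listed cytosolic ribosomal proteins, in contrast, 49 had a lower mean, 2 were called higher and 1 lower. The difference between the 2 families was not tested. Nucleoporins, which form the nuclear pore, were higher in 10 of 20 listed cases with none lower, and HNRNP genes, whose proteins bind nascent RNA, in 7 of 18 with none lower. Among small nucleolar and Cajal body RNAs 5 of 6 were called higher, transcripts short enough that their TPM depends strongly on which fragments were kept.

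KLF genes, zinc finger factors of the Krüppel-like family, were lower in 7 of 10 listed cases, with none higher, and all 10 had a lower mean. Among RAB GTPases, which direct vesicle traffic, 10 of 31 were lower and none higher. Of 138 listed SLC transporters 46 were called lower and 15 higher. Of 79 LINC genes, long intergenic noncoding RNAs, 38 were lower and 15 higher. Over all listed genes 23.4% were lower and 19.5% higher. Between 1 and 5 TPM, whatever the class of gene, 47.5% were lower and 19.4% higher. Whether the LINC counts follow the level of these genes was not tested. Over all listed long noncoding RNA genes 251 of 690 were called lower and 184 higher, and over protein-coding genes 2013 of 9012 were lower and 1695 higher.

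Some genes were listed at 0 TPM in a whole group. With ESC CM 27 genes were at 0 in all 3 libraries, and in control medium 14 were. The 100 genes with the highest TPM in a library held between 28.9% and 29.3% of the summed TPM of listed genes with ESC CM, against 33.7% to 34.5% in control medium.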
